A study of Mus musculus with 6 samples.

Results

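The Hox genes of the mouse were described in intervertebral discs (IVDs), as a record of the axial level of the pooled tissue and as a comparison of Adgrg6 mutant with control discs. The members were all gene symbols made of Hox, a cluster letter from a to d and a paralogue number, which gave 39 of the 43472 genes counted in each library. RNA-seq was performed on whole discs from T8 to L5 of the spine at postnatal day 20 (P20). The 3 mutant libraries came from Col2Cre;Adgrg6 f/f mice, which lose the adhesion G protein-coupled receptor Adgrg6 (Gpr126) where Cre recombinase is driven by a type II collagen promoter. The 3 control libraries carry the genotype label wild type and Col2Cre control in their titles, and the study's methods describe Cre (-) littermates. All mice were of the strain labelled C57B6/J, and each library was a separate pool of discs from 2 to 3 mice, so a p-value here measures the spread between pools. By the study's account Col2Cre recombines throughout the IVD during embryonic development, and a whole disc holds cartilaginous endplate, annulus fibrosus and nucleus pulposus together. Fewer cells of a type and less RNA per cell cannot be told apart in such bulk samples.

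Hox genes encode homeodomain transcription factors that give the segments of the trunk their identity. They lie in the clusters HoxA, HoxB, HoxC and HoxD, and genes of the same number in different clusters are paralogues that descend from a shared ancestral gene. Within a cluster the genes are switched on in order along the embryo, low numbers toward the head and high numbers toward the tail, and vertebral and limb cells keep much of this pattern after birth. In textbook terms, groups 5 to 9 mark the thorax, group 10 the lumbar spine, group 11 the sacrum and groups 12 and 13 the tail end, while cells of a given level also keep the genes of more anterior groups on.

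Paralogues carry closely related homeoboxes, the stretch that codes for the DNA-binding homeodomain, and this bears on how well short reads separate them. Over the 180 bases of the homeobox, 42 pairs of the same paralogue group were identical at a median of 80.6% of positions (range 67.2 to 93.9%), against 60.6% (46.1 to 88.9%) for 699 pairs from different groups. The 30 bases shown here are part of the third helix in the GENCODE M21 transcripts of Hoxb4 and Hoxa7. These were identical over this stretch although they belong to different groups. Hoxb6, the most abundant of the members that could be counted, is shown for comparison. The capitals mark the 18 bases for the core of the recognition helix, which lies in the major groove of DNA.
Hoxb4: aagatcTGGTTCCAGAATCGGCGCatgaag
Hoxa7: aagatcTGGTTCCAGAATCGGCGCatgaag
Hoxb6: aagattTGGTTTCAGAACCGGCGCatgaag
The longest exact run that 2 members shared anywhere in their transcripts was 52 bases (Hoxa6 and Hoxb4), followed by 50 bases (Hoxb9 and Hoxc9). The study's methods describe paired-end reads, and a pair that falls wholly within such a run can belong to either gene. How many pairs did so was not tested.

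The libraries held between 9061491 and 12017008 counts on genes, and the Hox genes together had 437 to 565 CPM (counts scaled to library size, with TMM factors throughout). The mean was 502 ± 57.0 CPM in controls (SD, n = 3) and 530 ± 42.0 in mutants (SD, n = 3), and the groups overlapped. Without TMM factors these means were 518 and 508, so the order of the groups turned with the scaling. Gpr126, the deleted gene, stood at 124, 108 and 94.3 CPM in the controls and at 138, 124 and 106 CPM in the mutants. These counts run over the whole gene and not over the floxed exons alone, so they do not check the labels. All 8 markers of cartilage and 8 of 9 of nucleus pulposus and notochord were detected (Noto had 1 count), with Col2a1 and Car3 the most abundant. Control replicate 1 stood apart in the 8 skeletal muscle markers, whose CPM summed to 4285 there and to between 199 and 284 in the other libraries.

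Whether a Hox gene had counts went with its place in the cluster. Of the 39 members, 29 had at least 1 count and 10 had none in any library. Among the members, 8 lie wholly within the body of another gene on the same strand in GENCODE M21 (GRCm38), and all 8 were at 0. Hoxa3, Hoxa4, Hoxa5 and Hoxa6 lie in the readthrough gene Gm28308, Hoxc6, Hoxc8 and Hoxc9 lie in the long Hoxc5 gene model, and Hoxd4 lies in that of Hoxd3. The same held across the genome, where 179 of 184 protein-coding genes inside a same-strand gene with no exon base in common were at 0 (97.3%), as were 105 of 111 with shared exon bases (94.6%). Among 12960 protein-coding genes with no overlap, 2490 were at 0 (19.2%), and among 628 inside a gene of the opposite strand only, 99 were (15.8%). The zeros of the 8 nested members are thus shared with nearly all genes nested in this way, and they do not show whether these genes were expressed.

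A further 5 members had less than 90% of their exon bases free of a same-strand neighbour, namely Hoxa2 (53.1% free), Hoxd10 (50.2%), Hoxc10 (33.9%), Hoxd11 (26.1%) and Hoxd3 (12.6%), and each had counts. The other 26 were at least 90% free. Of these, Hoxd1 and Hoxb13 had 0 counts in all 6 libraries. For counting error alone this allows up to 3 counts, or 0.25 to 0.33 CPM per library, here without TMM factors.

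**Figure D1:**
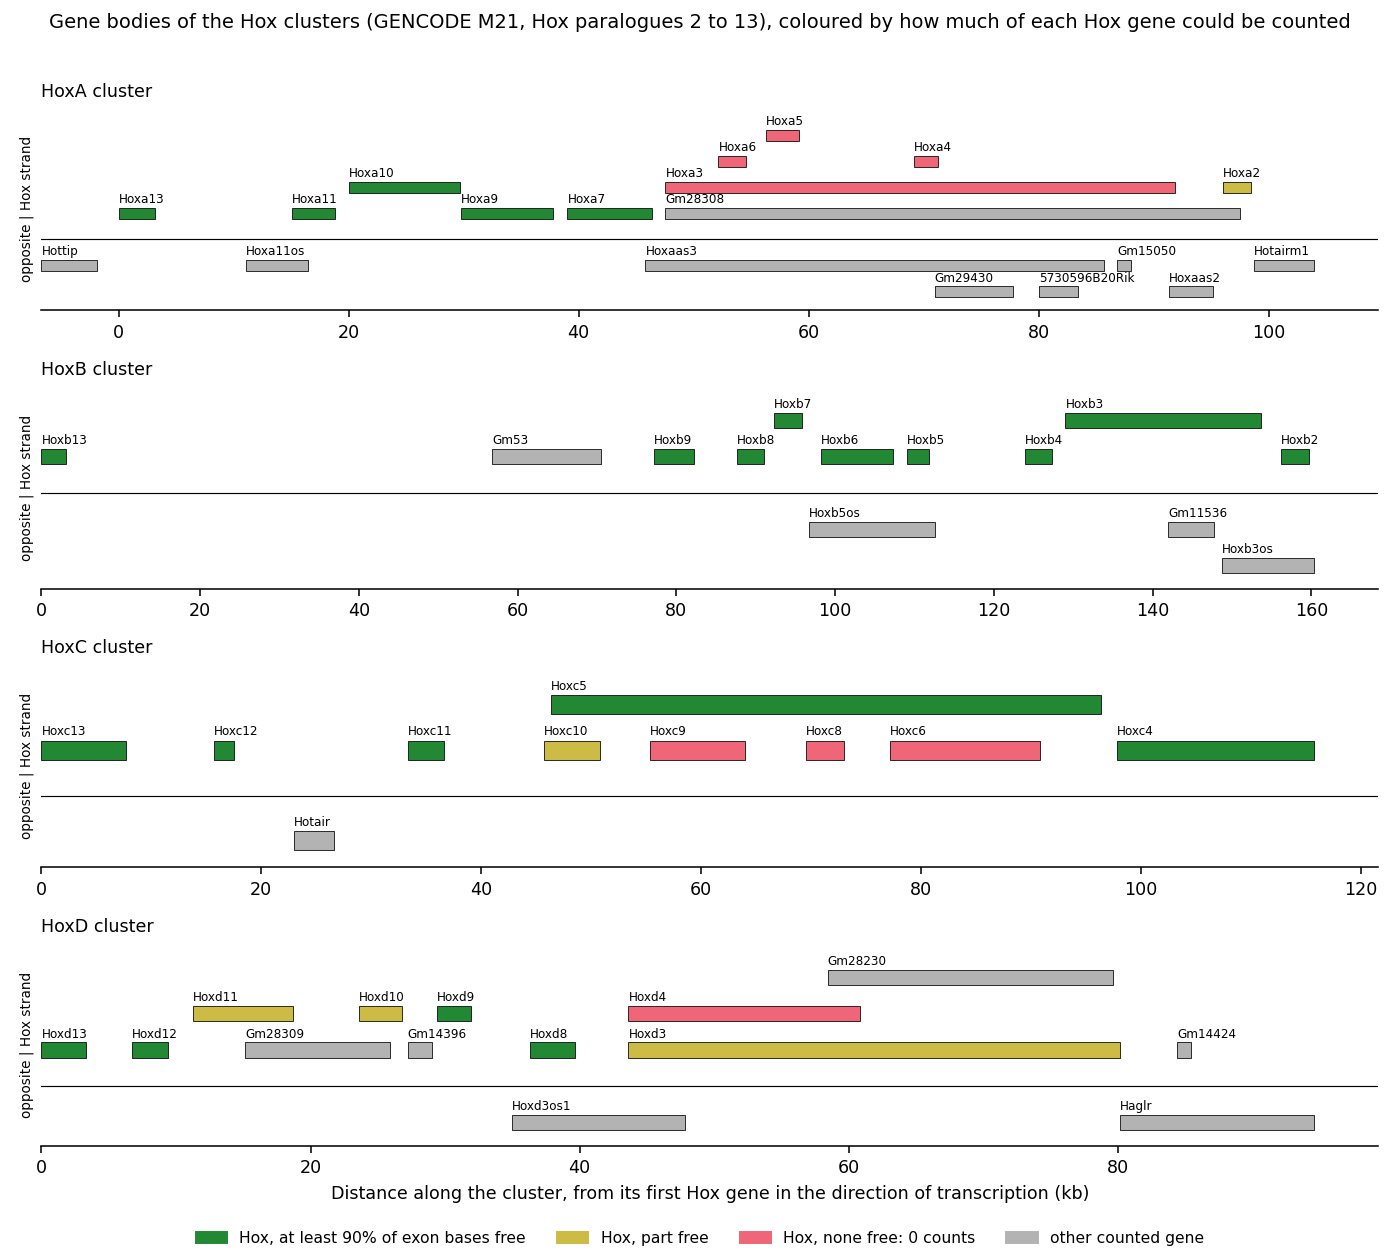
Gene bodies of the 4 Hox clusters (Hox paralogues 2 to 13) drawn to scale, with distance along the cluster in kilobases from its first Hox gene in the direction of transcription on the horizontal axis, genes on the Hox strand above each line and genes on the opposite strand below it (gene models under 1 kilobase are not drawn). Red marks the 8 Hox genes with no base free of a same-strand gene, which had 0 counts; yellow marks the 5 that were free in part, green the 23 that were at least 90% free, and grey other counted genes.

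Levels were compared between genes as CPM per kilobase of exon. The 8 nested members could not be counted, so each ranking below is among the other members. Hoxb6, a thoracic-group gene, was the highest in every library, at 76.9, 68.1 and 52.6 in the controls and 61.5, 60.3 and 67.7 in the mutants. Its lowest value lay above the highest value of any other member that could be counted. Of the 28 pairs of neighbours in the order of the 29 detected members, this was the 1 pair whose ranges over the 6 libraries did not overlap, so the order below Hoxb6 is not resolved step by step. The lead of Hoxb6 depends on the length used: per kilobase of free gene body, introns included, it had a mean of 13.9 CPM and Hoxd9, the next, 13.3, with overlapping ranges.

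The next level was shared by genes of groups 2 to 9 from all clusters. Hoxd9, a posterior thoracic gene that also acts in the limb bud, had 10.7, 16 and 14.6 CPM per kilobase in controls and 18.4, 14 and 19.2 in mutants. Hoxb9, its paralogue in HoxB, had 11.3, 11.9 and 10.8 in controls and 12.5, 13.4 and 17.7 in mutants. Hoxa7, which acts with Hoxb7 in thoracic vertebrae, was the highest HoxA gene that could be counted. It had 13.5, 15.1 and 10.3 in controls and 9.46, 12.3 and 15.5 in mutants. These genes were within each other's range, and for Hoxd9 and Hoxa7 the groups overlapped.

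Hoxb4, a gene of cervical and upper thoracic identity, varied widely within both groups, with 17.6, 8.0 and 8.65 CPM per kilobase in controls and 9.58, 11.5 and 17.1 in mutants. Hoxd8 had 10.3, 11.2 and 10.7 in controls and 14.6, 9.72 and 13 in mutants. Hoxc5 had 13, 10.9 and 8.68 in controls and 10.7, 13.1 and 10.4 in mutants. It was the highest HoxC gene that could be counted, as Hoxc6, Hoxc8 and Hoxc9 could not be. One high library in each group set the spread of Hoxb4, while Hoxd8 was even in the controls. Hoxb8 followed with 6.62, 14.1 and 8.28 in controls and 11.1, 9.04 and 10.6 in mutants. Hoxb7 had 9.70, 10.6 and 9.27 in controls and 8.48, 10.2 and 6.47 in mutants. Hoxb2, known from hindbrain patterning, had 8.87, 10.2 and 6.81 in controls and 9.76, 6.74 and 8.71 in mutants. Every one of these overlapped between the groups. Hoxb3 had 8.64, 8.59 and 8.04 in controls and 9.69, 5.62 and 9.55 in mutants, where the groups overlapped. With a mean of 8.35 ± 1.48 over the 6 libraries (SD), Hoxb3 completed the upper tier together with Hoxc4 (8.11 ± 1.51) and Hoxb5 (6.17 ± 2.10).

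Hoxa9, with 3.81 ± 0.774 CPM per kilobase (SD, 6 libraries), lay below its paralogues Hoxb9 and Hoxd9. Members of group 10 had low levels too. Hoxa10, which suppresses ribs at lumbar levels together with its paralogues, had 2.68, 3.26 and 4.52 in controls and 5.29, 3.79 and 2.05 in mutants. Hoxc10 had 1.85, 1.98 and 1.88 in controls and 3.22, 2.61 and 1.89 in mutants. Both overlapped between groups, and Hoxd10 had 28 counts in total. With 33.9% of its exon bases free, Hoxc10 had a mean level of 6.60 per kilobase of free exon, against 2.24 per kilobase of all exons.

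Genes of groups 11 to 13, which mark levels at or behind the end of the dissected segment, were low throughout. Hoxa11, a sacral and forelimb gene, was the highest at 0.749, 1.55 and 0.991 CPM per kilobase in controls and 0.896, 1.57 and 1.25 in mutants. Hoxc11 had 8, 10 and 3 counts in the control libraries and 8, 27 and 4 in the mutants. Hoxd11 had 0, 2 and 0 counts in controls and 6, 6 and 0 in mutants, with 26.1% of its exon bases free. Hoxa11 and Hoxc11 thus had counts in all 6 libraries and Hoxd11 in 3 of 6. The 14 counts of Hoxc13 fell in 4 libraries, with 10 of them in control replicate 3. That library also held all 9 counts of Hoxc12 and all 5 of Hoxd12. Hoxa13 and Hoxd13, which pattern digits and the tail end, had 1 count each over all libraries. Hoxb13 had 0.

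At the anterior end, Hoxb1, a hindbrain gene, had 25 counts in 3 libraries, of which 15 were in control replicate 3. Hoxa2 had a mean of 1.29 ± 0.659 CPM per kilobase (SD) over the 6 libraries, and Hoxd3 had 19 counts in total.

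**Figure D2:**
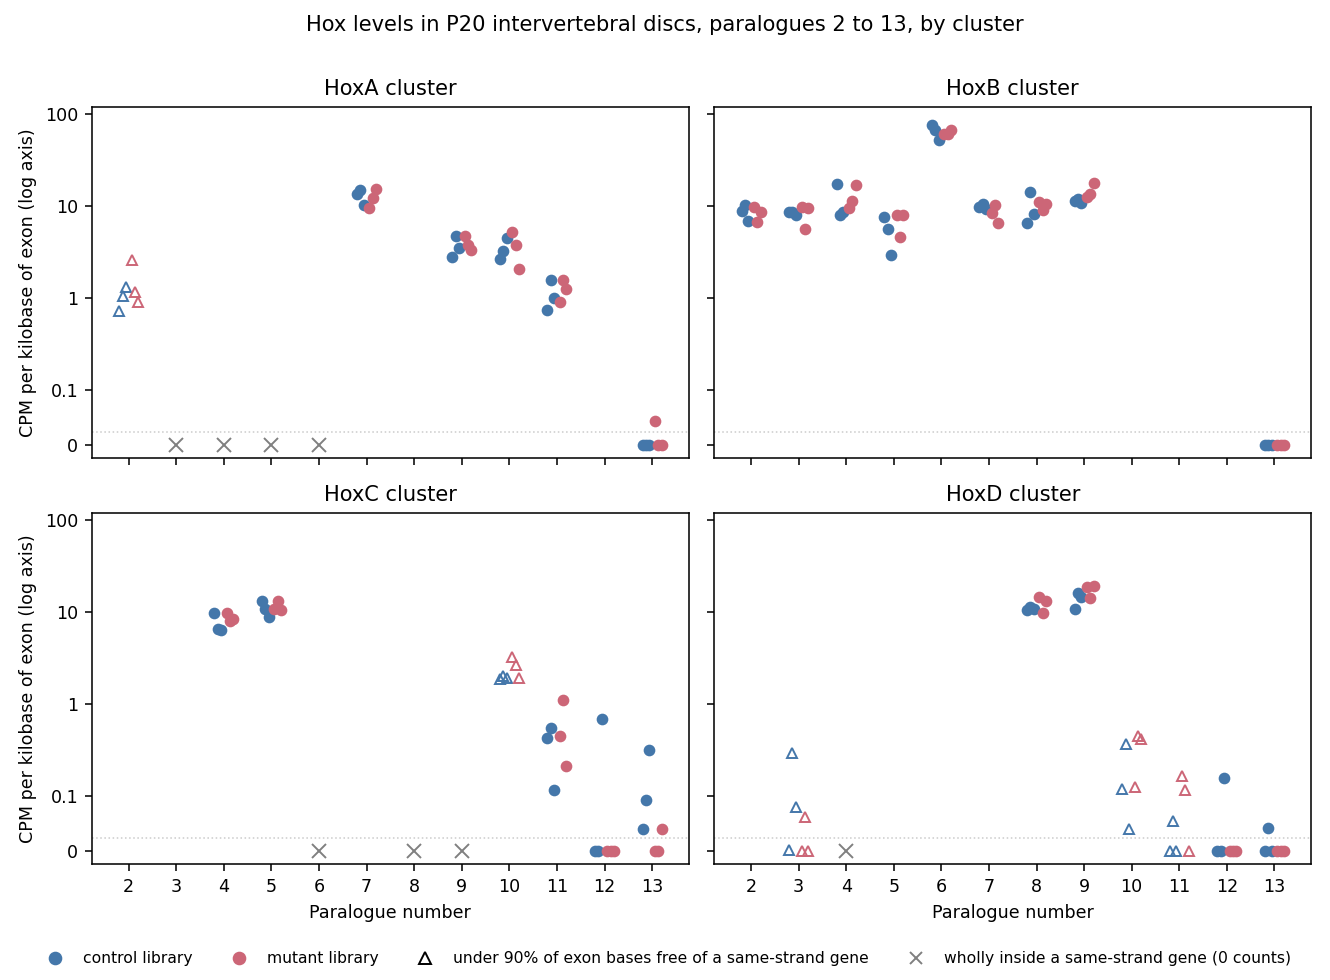
Level of each Hox gene of paralogues 2 to 13 in each of the 6 libraries, in CPM per kilobase of exon on a log axis with 0 drawn below the dotted line, against paralogue number, in 1 panel per cluster (blue, control; red, mutant). Open triangles mark genes with under 90% of exon bases free and crosses the 8 nested genes that could not be counted. Hoxb6 stands above all others that could be counted, and no gene of paralogue 10 or above exceeds 5.29 in any library.

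Summed by paralogue group, the level rose from 9.81 CPM per kilobase in group 2 to 64.5 in group 6 and fell to 0.0975 in group 13. The sums were 8.43 in group 3, 20.2 in group 4, 17.3 in group 5, 21.8 in group 7, 21.6 in group 8 and 32.2 in group 9. They dropped to 6.09 in group 10, 1.70 in group 11 and 0.139 in group 12. The groups with nested members (3 to 6, 8 and 9) are undercounted in these sums, and so are groups with members that were free in part. Per kilobase of free exon the sum was 10.7 in group 10 and 1.85 in group 11, against 32.3 in group 9. By cluster, HoxB gave 60.7% of all Hox counts, HoxA 14.7%, HoxD 12.8% and HoxC 11.8%, where 4 HoxA, 3 HoxC and 1 HoxD genes but no HoxB gene were nested.

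The share of Hox expression on groups 10 to 13 was 3.84 ± 1.15% in controls and 4.14 ± 1.32% in mutants (SD, n = 3 each), with single libraries between 2.62 and 5.04%. This share also depended on the scale, at 8.45% in controls and 9.96% in mutants per kilobase of free gene body, and at 2.83 and 2.76%, the other way round, with only the members at least 90% free. The mean paralogue number, weighted by the level of each gene, was 7.61 ± 0.0976 in controls and 7.60 ± 0.199 in mutants for HoxA. It was 5.81 ± 0.116 and 5.86 ± 0.0919 for HoxB, and 5.36 ± 0.259 and 5.32 ± 0.179 for HoxC. For HoxD it was 8.55 ± 0.0375 in controls and 8.60 ± 0.0222 in mutants. On this scale the differences between mutant and control means were 0.052 or smaller, and the libraries of the groups overlapped in each cluster. For HoxD this depended on the scale: under 4 of 5 other scales every mutant library was above every control, by 0.0637 to 0.234 between the means, and under the fifth the difference was 0.0145 and the libraries overlapped. The largest, 0.220 and 0.234, were per kilobase of free exon and of free gene body. There Hoxd3, with 1, 11 and 4 counts in controls and 0, 3 and 0 in mutants, was divided by 526 free bases. Control replicate 2 stood at 8.22 and 8.15 on these scales, against 8.56 per kilobase of all exons. The weighted numbers are scores over the members and are given without a test. Their absolute position follows from which genes could be counted: with levels per kilobase of free gene body, HoxC moved to 8.37 in controls and 8.50 in mutants, where Hoxc10 stood at 6.60 and Hoxc5, with its long gene model, at 1.75. The number for HoxC thus depends on the length used.

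**Figure D3:**
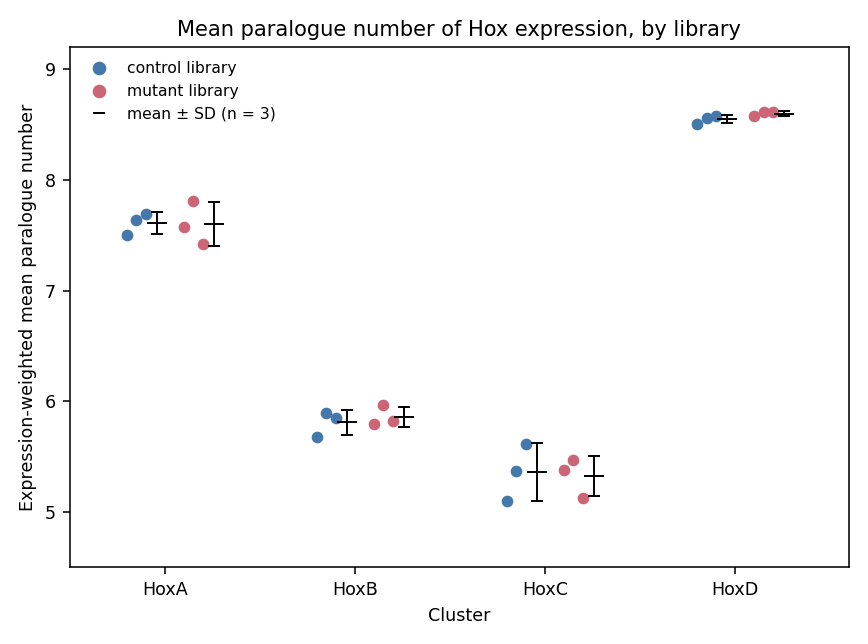
Expression-weighted mean paralogue number of each cluster (vertical axis, no unit) in each library, with control in blue and mutant in red, and the mean ± SD of 3 libraries in black beside them. In each cluster the difference between group means is 0.052 or smaller on this scale, in CPM per kilobase of exon.

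Several Hox genes are overlapped by a gene on the opposite strand, and there the counts of both were close to equal. Hoxb5os, which covers Hoxb6 and Hoxb5, had 8985 counts over the 6 libraries against 8715 for Hoxb5 and Hoxb6 together, and the ratio was 0.928 to 1.12 in single libraries. Hoxb3os had 3824 against 3934 for Hoxb2 and Hoxb3 (0.854 to 1.10). Hoxd3os1 had 2545 against 1934 for Hoxd8 (1.04 to 1.52). It also lies over part of Hoxd3, which had 19 counts in total, and of Hoxd4, which could receive none. Hoxa11os had 111 against 166 for Hoxa11 (0.375 to 0.889). The antisense gene thus tracked the sense genes across a wide range of levels. Over Hoxa4, Hoxa5 and Hoxa6, which could receive no counts, the opposite-strand gene Hoxaas3 had 459 to 650 counts per library. The library kit does not mark strand, and the strand setting of the counting is not given in the sources used here, so reads from a Hox gene and from its antisense partner cannot be told apart. This holds in particular for Hoxb6, all of whose exon bases lie under Hoxb5os.

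**Figure D4:**
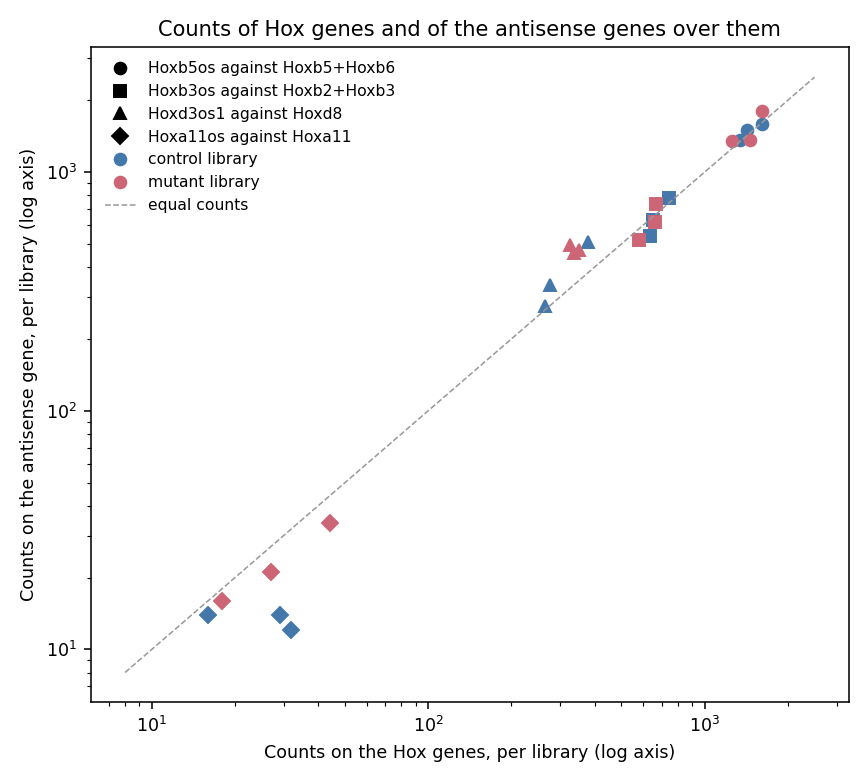
Counts on 4 antisense genes (vertical, log axis) against counts on the Hox genes they overlap (horizontal, log axis), 1 point per library, with control in blue and mutant in red and a dashed line at equal counts. For Hoxd3os1 the counts are those of Hoxd8 alone, though it also overlaps Hoxd3 and Hoxd4. Hoxb5os and Hoxb3os lie along the line, with ratios of 0.928 to 1.12 and 0.854 to 1.10.

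Hox expression was then compared between mutant and control discs with edgeR's quasi-likelihood test over all 16152 genes that passed the filter on low counts, of which 19 were Hox genes. The 10 members with counts that were not tested had at most 60 counts in total. None of the 19 passed an unadjusted p of 0.05, where 7.21% of all tested genes did (2.89% higher and 4.32% lower in mutants), and none passed an adjusted p of 0.05 (Benjamini-Hochberg), where 0.00619% did. DESeq2 and limma-voom also called 0 of the 19. The log2 fold change of mutant over control was above 0 for 13 and below 0 for 6, where 48.4% of all tested genes were above 0. Its median was 0.09 over the 19, against -0.01 over all tested genes.

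The range among the tested genes of groups 2 to 11 ran from -0.23 for Hoxb7 to 0.55 for Hoxa2, which was among the lowest expressed of those tested. The 95% interval lay within 1 log2 unit of 0, a doubling or halving, for 14 of the 19, where 60.7% of all tested genes had such an interval. For Hoxb6 the log2 fold change was -0.06 with an interval of -0.48 to 0.36, and for Hoxb2 it was -0.04 (-0.51 to 0.43). Hoxa10 had 0.08 (-0.69 to 0.86) and pools that ranged from 8.78 to 14.8 CPM in controls and from 6.69 to 17.3 CPM in mutants, so the interval for this lumbar gene includes changes of over 1.5-fold either way. Intervals reached past 1 log2 unit for Hoxa2, Hoxb5, Hoxc10 and Hoxa11.

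Hoxb9 was the 1 tested member whose groups did not overlap, with 29.0, 30.6 and 27.8 CPM in controls and 32.2, 34.5 and 45.6 CPM in mutants. All 3 mutant pools were above all 3 control pools, as for 5.45% of all tested genes, and no tested member had all its mutant pools below (5.96% of all tested genes). Among the members too low to test, Hoxc13 had 1, 2 and 10 counts in controls and 0, 0 and 1 in mutants, where the groups met at 1 count. The log2 fold change of Hoxb9 was 0.36 ± 0.18 (SE), with an unadjusted p of 0.0718 and an adjusted p of 0.706 in edgeR's fit, the lowest p of the 19. Hoxd9 was next with 22.8, 34.1 and 31.2 CPM in controls and 39.4, 29.9 and 41.1 CPM in mutants, where the groups overlapped. It had a log2 fold change of 0.32 ± 0.20 (SE) and an adjusted p of 0.772 in the same edgeR fit.

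Single libraries decided whether any member was called. Without control replicate 1, the library high in muscle markers, Hoxb4 had a log2 fold change of 0.63 with an unadjusted p of 0.0338 in edgeR. Without mutant replicate 1, Hoxb9 had 0.49 with an unadjusted p of 0.0313 in edgeR. Without mutant replicate 2, Hoxd9 had 0.47 with an unadjusted p of 0.0468 in edgeR. The adjusted p-values of these edgeR fits were 0.297, 0.939 and 0.502. Each was 1 call among 19 or 20 tested Hox genes, in fits that called 14.14%, 4.76% and 9.76% of all tested genes, and the other 3 omissions gave 0.

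**Figure D5:**
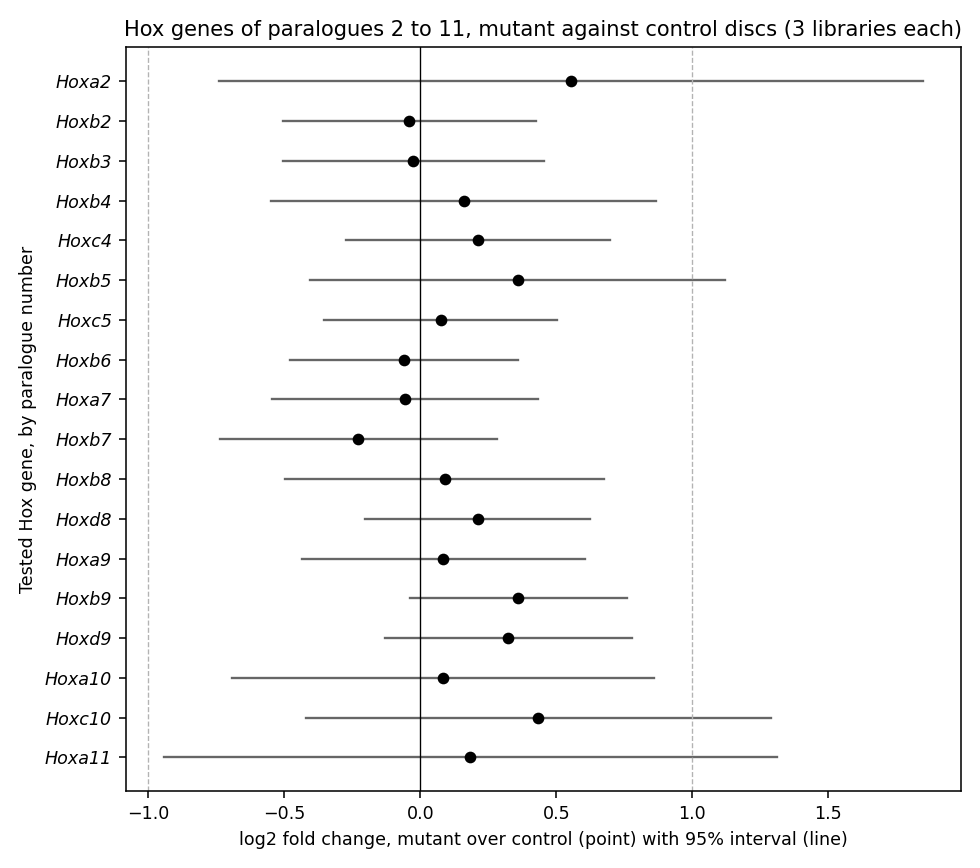
Log2 fold change of mutant over control for the 18 tested Hox genes of paralogues 2 to 11 in order of paralogue number (points), with 95% intervals from edgeR (lines) and dashed lines at a doubling and a halving. Every interval includes 0, and 14 of 18 lie between the dashed lines.

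Promoters are shown for the most abundant HoxA and HoxD members that could be counted. They are as RefSeq gives them on GRCm38.p6, from 250 bases before to 50 after the start. Of the 39 members 22 had an entry, and Hoxb6 and Hoxc5 were not among them. The Hoxa7 promoter lies at chr6:52218524-52218823 on the minus strand and that of Hoxd9 at chr2:74697513-74697812 on the plus strand. Both strands were searched for TTTATG (a core bound by Cdx and posterior Hox proteins), TGATNNAT (a joint site of Pbx and Hox) and TATAAA (the TATA box), and capitals mark matches.
Hoxa7: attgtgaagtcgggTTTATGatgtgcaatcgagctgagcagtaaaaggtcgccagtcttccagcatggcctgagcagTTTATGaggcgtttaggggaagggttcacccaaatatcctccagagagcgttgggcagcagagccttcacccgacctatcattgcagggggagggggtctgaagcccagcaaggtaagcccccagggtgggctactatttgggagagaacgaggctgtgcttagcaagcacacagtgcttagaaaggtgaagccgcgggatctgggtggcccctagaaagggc
Hoxd9: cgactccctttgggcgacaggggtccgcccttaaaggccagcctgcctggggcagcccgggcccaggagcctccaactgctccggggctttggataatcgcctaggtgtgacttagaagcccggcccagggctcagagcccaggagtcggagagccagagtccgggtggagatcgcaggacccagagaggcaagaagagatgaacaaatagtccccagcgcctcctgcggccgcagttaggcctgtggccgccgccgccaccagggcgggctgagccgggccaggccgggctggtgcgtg
The Hoxa7 promoter held TTTATG 2 times, with no overlap with another motif, and the Hoxd9 promoter held none of the 3 motifs. Among 32851 promoters of the same length, TTTATG was in 11.9%, TGATNNAT in 8.85% and TATAAA in 13.6%. The Hoxd9 promoter had 20 CG dinucleotides and that of Hoxa7 had 9, against a median of 7. A match describes the letters and is not a site shown to be bound.

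In 6 lists of cofactors, chromatin genes, axial regulators, sclerotome factors, regional homeobox and T-box genes and cluster non-coding genes, 6 of 79 tested genes were called (7.59%), against 7.21% of all tested genes at an unadjusted p of 0.05. Of the 9 Pbx, Meis and Pknox cofactors, which bind DNA together with Hox proteins, none was called in either direction at an unadjusted p of 0.05. Their median log2 fold change was -0.01, and Pknox2, the most abundant of them, stood at 40.9 ± 3.27 CPM in controls and 43.0 ± 4.92 in mutants (SD, n = 3 each). Among 27 tested Polycomb, Trithorax and related chromatin genes, 1 was called higher and 0 lower. This was Kdm6b, which removes the repressive methyl mark of histone H3 lysine K27, with 83.9, 70.3 and 48.3 CPM in controls and 124, 78.4 and 101 CPM in mutants. Jarid2, the most abundant of this list, had 217 ± 133 CPM in controls and 389 ± 288 in mutants.

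Of 12 tested regulators of axial patterning, 2 were higher at an unadjusted p of 0.05 and 0 lower. Gdf11, the ligand that sets the trunk-to-tail transition in the embryo, had 2.78, 3.00 and 2.35 CPM in controls and 7.74, 5.30 and 3.40 CPM in mutants, a log2 fold change of 1.02 ± 0.44 (SE). Rara, a retinoic acid receptor, had 45.3, 54.4 and 37.0 CPM in controls and 73.1, 50.8 and 81.7 CPM in mutants (0.59 ± 0.22). The groups did not overlap for Gdf11 and overlapped for Rara. T (brachyury), the most abundant of the list and also a notochord marker, had 220 ± 90.1 CPM in controls and 336 ± 136 in mutants.

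Among 14 tested transcription factors of the sclerotome, the embryonic source of vertebrae and discs, 1 was higher and 0 lower. With 1 library left out, 1 to 6 of this list and 0 to 5 of the chromatin list were called. These fits called 3.77 to 14.14% of all tested genes at an unadjusted p of 0.05. The other lists gave 0 to 2 (cofactors), 1 to 3 (axial regulators), 0 to 3 (regional genes) and 0 to 1 (non-coding genes). Pax9, which with Pax1 is needed for vertebral bodies and discs to form, had 17.6, 21.4 and 15.6 CPM in controls and 26.7, 27.9 and 28.6 CPM in mutants. Every mutant pool was above every control pool, and the log2 fold change was 0.61 ± 0.18 (SE). Sox9, the most abundant of that list, had 512 ± 98.1 CPM in controls and 552 ± 97.9 in mutants. Of 8 tested homeobox and T-box genes of limb and regional identity outside the clusters, 1 was higher and 0 lower. This was Prrx1, a gene of limb and connective tissue mesenchyme, with 26.0, 21.9 and 21.1 CPM in controls and 35.8, 31.3 and 30.2 CPM in mutants, and a log2 fold change of 0.50 ± 0.17 (SE). Irx3, the most abundant there, had 53.8 ± 24.1 CPM in controls and 54.5 ± 29.2 in mutants.

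In the non-coding genes of the Hox clusters, 1 of 9 tested was higher and 0 lower. Hoxd3os1 had 29.5, 37.3 and 39.9 CPM in controls and 53.5, 40.5 and 48.6 CPM in mutants, a log2 fold change of 0.42 ± 0.18 (SE). Hoxd8, whose reads cannot be separated from those of Hoxd3os1, had 0.21 ± 0.19. Parts of Hoxd3 and Hoxd4 also lie under Hoxd3os1. Hoxb5os, the most abundant, had 147 ± 27.3 CPM in controls and 149 ± 4.86 in mutants. Hottip, which lies at the posterior end of HoxA, had 1 count in all, and Hotair, between Hoxc11 and Hoxc12, had 10. None of the genes called in these lists passed an adjusted p of 0.05 in edgeR (Benjamini-Hochberg), with values of 0.676 for Kdm6b, Rara, Pax9 and Prrx1, 0.686 for Gdf11 and 0.691 for Hoxd3os1. Of 11 alternative fits, Pax9 was called in 11, Rara and Prrx1 in 9 each, Kdm6b in 7, Hoxd3os1 in 5 and Gdf11 in 4. Of the most abundant genes, not called in the main fit, T was called in 6 (log2 fold change 0.34 to 0.996 over the 11). Jarid2 was called in 2, and Pknox2, Sox9, Irx3 and Hoxb5os in 0.

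Markers of other tissues are given beside these values, at an unadjusted p of 0.05 in edgeR, which 2.89% of all tested genes passed as higher and 4.32% as lower. All 8 skeletal muscle markers were lower in mutants (median log2 fold change -3.11), which rested on control replicate 1: without it 0 were lower and 3 higher, with a median of 0.54. Of 6 outer annulus and tendon markers 3 were higher (Tnmd, Col1a1 and Thbs4) and none lower, with sums of 6763 to 16889 CPM in controls and 15305 to 25262 in mutants. Of 6 bone markers 2 were higher and 1 lower, of 6 tested glial markers 1 was higher, of 5 tested neuronal markers 2 were higher and 1 lower, and of 6 neutrophil markers 2 were higher. Of 5 red blood cell markers and of 4 macrophage markers 1 each was higher, and none was called for cartilage, nucleus pulposus, sensory ganglion, endothelium or kidney. Among neuronal genes, Rbfox3 had 514 counts and Nefm 242 over all libraries, while Tubb3 and Tac1 were listed at 0. The glial markers, with Mbp the most abundant, summed to 328 to 1783 CPM in controls and 1067 to 3688 in mutants. The glial marker called was Gfap, with 9.74, 34.5 and 6.49 CPM in controls and 94.0, 69.0 and 29.0 in mutants, where the groups overlapped. The summed level of each marker list overlapped between the groups. The part of these tissues in the Hox levels and in the differences above was not tested.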

How the data were processed

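Discs of 6 pools were sequenced, 3 per genotype. The authors deposited raw counts per gene symbol. Their methods name Cutadapt, FastQC and HISAT2 with GRCm38, while the submitters' processing notes name STAR 2.5.3a, HTSeq, DESeq2 and mm10 (GRCm38). The strand setting is not given in the sources used here. Counts on genes were 9061491 to 12017008 per library, and their number limits the precision for low genes.

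The members and gene lists were chosen with earlier results of these data known. CPM were computed with TMM factors and divided by exon length from GENCODE M21. Mutant was tested against control with edgeR 4.0.16 (quasi-likelihood, filterByExpr with a minimum count of 10, Benjamini-Hochberg adjustment), in R 4.3.3, and tested on simulated data of 16152 genes, where 76% of 2-fold and 95% of 4-fold changes were called at an unadjusted p of 0.05. Alternatives were RLE factors, no filter, DESeq2 1.42.0, limma-voom 3.58.1, a replicate block and each library left out. Per-library values were given for the 10 highest members and those whose groups did not overlap. They were also given for the highest of each cluster and of paralogue groups 2 to 13, and all of groups 11 to 13. From the context lists the most abundant gene and those with an unadjusted p under 0.05 were named. A further item is not reported here. A table of the authors' own comparison, with normalized values, fold changes and p-values, was not used.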

Additional observations from a re-analysis of the deposited data

How the results depend on the processing

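The counts of Hox genes called at an unadjusted and an adjusted p were 0 with RLE factors, no filter, DESeq2 and limma-voom, and leaving out 1 library gave 0 to 1 at an unadjusted p and 0 to 0 at an adjusted p. The median log2 fold change of the tested members stayed above 0, at 0.06 to 0.19 with 1 library left out. Over all genes, edgeR called 1164 at an unadjusted p and 1 at an adjusted p (Benjamini-Hochberg). These became 2276 and 245 without a filter, and 618 to 2427 and 0 to 31 with 1 library left out (lowest without control replicate 3, highest without control replicate 1). DESeq2 gave 52 and limma-voom 0 at an adjusted p. The cause was not tested. With the replicate number as a block, the count was 0 at an adjusted p for all genes and 0 for the Hox genes. Same-numbered libraries deviated together at correlations of 0.159, -0.132 and 0.101, so the numbers do not pair the samples.

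The weighted paralogue number and the share of groups 10 to 13 moved with the scale (control, then mutant). With CPM not divided by length, HoxA was at 7.93 and 7.95, HoxB at 5.52 and 5.599, HoxC at 5.16 and 5.14, HoxD at 8.47 and 8.54, and the share at 3.95 and 4.23%. Without the most abundant gene of each cluster they were 8.42 and 8.33, 5.61 and 5.74, 5.73 and 5.64, and 8.004 and 8.07, and the share was 7.90 and 8.24%. The other scales were chosen after seeing the data. Per kilobase of free exon, HoxA was at 7.40 and 7.30, HoxC at 6.04 and 6.12, HoxD at 8.39 and 8.61, and the share at 5.64 and 6.58%. With only members at least 90% free, HoxA was at 7.88 and 8.01, HoxC at 4.89 and 4.75, and the share at 2.83 and 2.76%. Per kilobase of free gene body, HoxA was at 6.92 and 6.73, HoxB at 5.54 and 5.61, HoxC at 8.37 and 8.50, HoxD at 8.36 and 8.597, and the share at 8.45 and 9.96%. These shifts come from which genes and lengths enter the weights. RLE factors cannot change a value formed within a library.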
